A study of Homo sapiens with 6 samples.

Results

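The genes described here are the members of the tumour necrosis factor (TNF) superfamily of ligands and of the TNF receptor superfamily that carry the systematic names TNFSF or TNFRSF followed by a number and, in some, a letter. They were chosen by that name alone, and 32 of the 22091 gene IDs in the files matched, of which 11 encode ligands and 21 encode receptors. The cells were MHCC97L, MHCC97H and HCCLM3, established lines of human hepatocellular carcinoma kept in DMEM with serum, and their RNA was sequenced. In each line a control library and a library from cells given 2.5 ng/mL TGF-β1 were made, both at 4 h, which gives 6 libraries with 1 per line and condition. MHCC97L spreads less and MHCC97H more in host animals, and both go back to the same parental tumour line. HCCLM3 comes from metastases of MHCC97H, so the lines have a common origin. The labels do not name separate cultures behind the libraries, so the p-values below measure the spread between these libraries after line and treatment are taken into account.

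Ligands of the TNF superfamily are mostly trimeric proteins anchored in the membrane of the cell that makes them, and many are also released in soluble form. Their receptors fall into groups by what lies inside the cell: some carry a death domain that can recruit caspases, others bind TRAF adaptors and lead to NF-kB and kinase signalling, and decoy receptors lack a signalling tail or are secreted and bind ligand without signalling. In the liver, TNF and TRAIL receptors are known for hepatocyte injury and death, TNFRSF12A for regeneration and progenitor cell growth, and many of the other receptors are best known from lymphocytes.

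Promoter sequences from RefSeq (GRCh38.p14) are shown for 3 of the 5 receptors that changed after TGF-β1, so that the stretch upstream of each of these genes can be read beside its response. Each runs 5′ to 3′ on the gene's minus strand and stops where the GENCODE 29 gene begins, and capitals mark a match to the SMAD box CAGAC on either strand.
TNFRSF18, chr1:1206692-1206842: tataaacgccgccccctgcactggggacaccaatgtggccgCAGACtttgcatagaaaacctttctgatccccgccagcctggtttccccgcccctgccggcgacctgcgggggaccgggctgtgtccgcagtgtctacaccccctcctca
TNFRSF1A, chr12:6342115-6342326: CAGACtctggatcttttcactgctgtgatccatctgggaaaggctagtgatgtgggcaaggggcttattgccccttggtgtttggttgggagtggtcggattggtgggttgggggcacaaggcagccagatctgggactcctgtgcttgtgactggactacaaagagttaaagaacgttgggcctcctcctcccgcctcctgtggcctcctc
TNFRSF21, chr6:47309906-47310155: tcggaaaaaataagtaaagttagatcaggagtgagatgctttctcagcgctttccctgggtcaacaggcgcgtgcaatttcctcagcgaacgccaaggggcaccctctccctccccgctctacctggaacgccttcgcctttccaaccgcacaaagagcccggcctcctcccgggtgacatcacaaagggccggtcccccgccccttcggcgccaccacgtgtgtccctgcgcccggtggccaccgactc
The match in TNFRSF18 begins 209 bases and that in TNFRSF1A 250 bases upstream of the RefSeq start, and the 250 bases upstream of TNFRSF21 held none. For TNFRSF18 and TNFRSF1A, 151 and 212 of these 250 bases are printed, and the RefSeq start lies past the end of the printed stretch. CAGAC is a common string: it was present in 38.0% of 34788 promoter windows of 250 bases and in 11 of the 26 windows (42.3%) that belong to 21 of the named genes. The AP-1 site TGANTCA and the kappaB consensus were searched on both strands in the same windows. None of the 250-base windows of these 3 genes held either of them, against 6.59% and 9.95% of all windows. Of the 26 windows of the named genes, 15.4% held the AP-1 site and 26.9% the kappaB consensus.

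Total expected counts were 18485041 to 23242862 per library. The 6 genes taken as a check of the response to the ligand were all higher after TGF-β1 in edgeR's quasi-likelihood test, among them SMAD7 (log2 change 1.19) and CCN1 (1.88). Of the hepatocellular markers, KRT8 stood at 4294 to 6571 CPM (counts scaled by library size) and HNF4A at 78.96 to 207.6 CPM. AFP and ALB were low at 3.239 to 5.288 and 1.259 to 22.91 CPM, and GPC3 was listed at 0 in every library. Of the 11 tested, 8 were lower in HCCLM3 than in MHCC97L (15.1% of all genes) and 9 lower than in MHCC97H (14%). None was higher in HCCLM3 with edgeR, DESeq2 or limma-voom (15.1% and 13.3% of all genes with edgeR). The largest differences from MHCC97L were in SERPINA1 (log2 -6.50, adjusted p = 2.65e-08) and APOB (-3.58, adjusted p = 1e-05). The 9 leukocyte markers summed to 134.2 to 234.2 CPM in the controls and 119.2 to 268.7 CPM after TGF-β1, which was mostly CD68. PTPRC, CD3E and MS4A1, which define leukocytes and their T and B cells, were at 0 to 0.1305 CPM, but the B cell gene CD79A was at 3.263 to 17.34 CPM (4.14-fold higher in HCCLM3 than in MHCC97L, adjusted p = 1.68e-05) and LYZ at 2.572 to 4.455 CPM. The 5 endothelial markers summed to 13.86 to 41.06 and 11.09 to 35.26 CPM, and the 8 stellate cell and fibroblast markers to 11.66 to 34.83 and 19.42 to 39.03 CPM. Among the last, COL1A1 rose from 0.3045 to 0.4764 CPM in the controls to 5.569 to 7.198 CPM after TGF-β1 (adjusted p = 2.4e-05), and COL3A1 was at 14.39 and 11.72 CPM in HCCLM3 and at most 0.3811 CPM in the other lines. The part of these marker differences in the results below was not tested.

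Of the 32 genes, 23 passed the filter on low counts and were tested, 6 ligands and 17 receptors. The other 9, which are 5 ligands and 4 receptors, had at most 10 counts in any library. TNFSF8 (CD30 ligand), TNFSF11 (RANK ligand) and TNFRSF19 (TROY) were listed at 0 in all 6 libraries, where a count of 0 allows 0.1289 to 0.1593 CPM for counting error only. TNFRSF17 (the plasma cell receptor BCMA) had 1 to 10 counts per library, TNFRSF8 (CD30) 0 to 5, TNFSF13B (BAFF) and TNFSF4 (OX40 ligand) 0 to 3, TNFSF18 (GITR ligand) 0 to 2 and TNFRSF13B (TACI) 0 to 1. A listed 0 is given here only as the value in the files.

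To compare genes with each other, counts were also divided by exon length (RPKM, reads per kilobase of exon, scaled by library size). By that measure the receptors spanned more than the ligands: TNFRSF12A (Fn14, the TRAF-binding receptor of TWEAK) averaged 267.8 RPKM over the 6 libraries and ranked 108 of 13316 tested genes with a length. TNFRSF1A (TNF receptor 1, with a death domain) averaged 81.71 RPKM, TNFRSF21 (death receptor 6) 35.2 RPKM and TNFRSF10B (TRAIL receptor 2, a death receptor) 21.14 RPKM. These 4 receptors held 89.6% to 92.6% of the summed CPM of all 32 genes in each library. The highest ligand was TNFSF9 (CD137 ligand) at 6.385 RPKM, followed by TNFSF13 (APRIL) at 2.276 and TNFSF12 (TWEAK) at 1.307. TNFSF10 (TRAIL) was the lowest of the 23 named genes tested, at 0.1332 RPKM. Summed over ligands, the level was 21.98 to 23.29 CPM in the controls and 16.32 to 21.38 CPM after TGF-β1, while the receptors summed to 995.9 to 1088 CPM and 1229 to 1268 CPM.

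**Figure D1:**
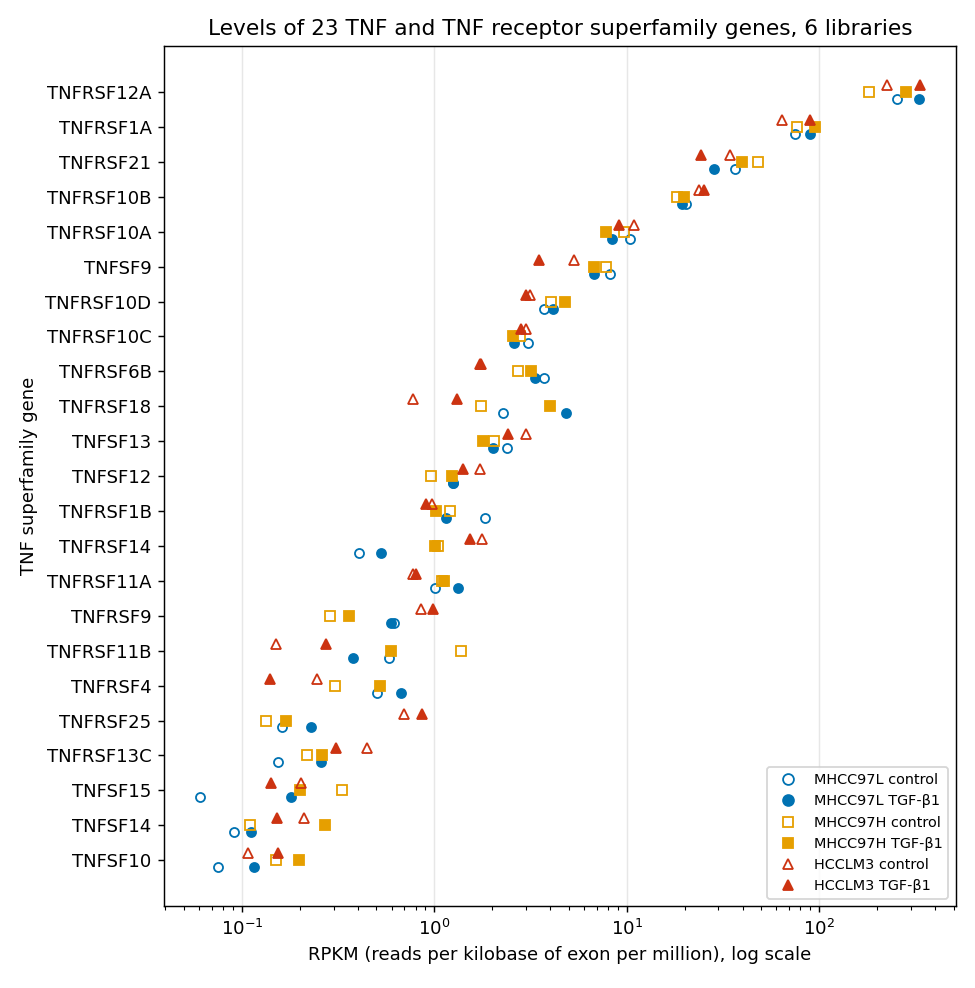
Level of each of the 23 tested genes in RPKM on a log axis, with open symbols for control and filled symbols for TGF-β1 libraries and a shape and colour for each line. TNFRSF12A sits highest, at a mean of 267.8 RPKM, and TNFSF10 lowest, at 0.1332 RPKM.

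The levels of ligands and of their receptors in these cells were far apart for most pairs. TNFSF12 averaged 1.307 RPKM against 267.8 for its receptor TNFRSF12A. TNFSF10 averaged 0.1332 RPKM, while its death receptors TNFRSF10B and TNFRSF10A averaged 21.14 and 9.377 and its decoys TNFRSF10D and TNFRSF10C 3.807 and 2.805 RPKM. The reverse order held for TNFSF9, at 6.385 RPKM against 0.6158 for its receptor TNFRSF9. TNFSF15 (TL1A) averaged 0.1863 RPKM, its death receptor TNFRSF25 0.3747 and its secreted decoy TNFRSF6B (DcR3) 2.743. TNFSF14 (LIGHT) averaged 0.1575 RPKM and TNFRSF14 (HVEM), a receptor for it, 1.046. Receptors with other names are left out of these pairs, among them LTBR (lymphotoxin beta receptor) at 43.18 RPKM. For TNFRSF18 (GITR, 2.492 RPKM), TNFRSF4 (OX40, 0.3988 RPKM) and the receptor and secreted decoy of RANK ligand, TNFRSF11A (RANK, 1.023 RPKM) and TNFRSF11B (osteoprotegerin, 0.5601 RPKM), the ligand gene was among those not tested. TNFRSF13C, the BAFF receptor of B cells, averaged 0.2739 RPKM, and it passed no test after TGF-β1 or between lines. These are RNA levels of each gene in 1 cell population, and no test was made between genes.

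After TGF-β1, 5 of the 23 tested genes changed at an adjusted p under 0.05 in edgeR's quasi-likelihood test, against 15.1% of all 14176 genes tested. TNFRSF12A, TNFRSF1A and TNFRSF18 rose (8.18% of all genes were higher) and TNFRSF21 and TNFRSF10A fell (6.96% were lower). All 5 are receptors, as are 17 of the 23 genes tested, and no test was made between ligands and receptors. The median log2 change was 0.046 over the 23 genes, 0.0031 over the ligands, 0.11 over the receptors and -0.003 over all genes tested. Of all calls, 54% were higher with TMM scaling, 44.3% with upper quartile scaling and 36.9% with library totals, and under each scaling the same counts of 3 higher and 2 lower were found among the named genes, whose median was -0.0050 with library totals. Each library measures the RNA of a whole cell population, so fewer cells with an RNA and less of it per cell cannot be told apart.

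TNFRSF12A, the receptor of TWEAK, lies at chr16:3018445-3022383 (GRCh38) and was measured at 468.9, 337.3 and 418.5 CPM in the MHCC97L, MHCC97H and HCCLM3 controls and at 610.2, 520.0 and 614.8 CPM after TGF-β1. Every TGF-β1 library was above every control library, and so was every one for TNFRSF1A (8.77% of all genes showed this). The rise was 1.43-fold (log2 0.52, SE 0.071, adjusted p = 0.00165). As a share of all 32 genes, TNFRSF12A went from 33.1% to 42.2% of their summed CPM in the controls to 41.6% to 47.9% after TGF-β1. Its call held without any line in turn, at an adjusted p of 0.0173 without MHCC97L. CLDN6, which overlaps it on the opposite strand, was at 0.0859 to 0.222 CPM.

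TNFRSF1A, the death domain receptor of TNF and lymphotoxin alpha, lies at chr12:6328757-6342114. It was at 299.5, 309.3 and 256.4 CPM in the controls in the same order of lines and at 357.6, 383.1 and 357.6 CPM after TGF-β1, with no overlap between the conditions. It rose 1.27-fold (log2 0.35, SE 0.069, adjusted p = 0.0109), and the adjusted p was 0.11 without MHCC97L. TNFRSF1B, the other TNF receptor, which binds TRAF adaptors directly and has no death domain, was far lower at 3.39 to 6.917 CPM and did not pass the test (log2 change -0.35, adjusted p = 0.191).

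TNFRSF18 (GITR), a TRAF-binding receptor best known from regulatory and activated T cells, lies at chr1:1203508-1206691. Its counts were 72, 50 and 20 in the controls and 149, 128 and 37 after TGF-β1. As CPM these were 3.132, 2.382 and 1.062, then 6.621, 5.498 and 1.792. The treated library was the higher of the pair in each line, but the HCCLM3 treated library was below the MHCC97L and MHCC97H controls, so the conditions overlap. The rise was 2.06-fold (log2 1.04, SE 0.19, adjusted p = 0.0066), the largest of the 5 and on the fewest counts. The adjusted p was 0.102 without MHCC97L and 0.0557 without MHCC97H. Of the leukocyte markers, PTPRC, CD3E and MS4A1 were at or near 0 in these libraries, while CD79A and LYZ, at the values given above, were not, and these did not pass the test after TGF-β1 (adjusted p = 0.242 and 0.254).

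TNFRSF21, a death domain receptor, was at 131.0, 172.3 and 124.2 CPM in the controls and at 101.6, 142.9 and 87.26 CPM after TGF-β1. It lies at chr6:47231532-47309905. Each line fell, and the MHCC97H treated library was above the controls of the other lines. The log2 change was -0.38 (SE 0.070, adjusted p = 0.00771), with an adjusted p of 0.114 without MHCC97L.

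TNFRSF10A (TRAIL receptor 1, a death receptor) on chromosome 8 was at 30.76, 28.58 and 32.13 CPM in the controls and at 24.79, 22.94 and 26.83 CPM after TGF-β1. Every treated library was below every control library, as for 9.19% of all genes. The fall was 1.23-fold (log2 -0.30, SE 0.078, adjusted p = 0.0334). Its call was the least firm of the 5: the adjusted p was 0.324 without MHCC97L, 0.13 without MHCC97H and 0.138 with DESeq2. The other genes of the TRAIL receptor cluster did not pass the test. TNFRSF10B was at 94.65 to 122.4 CPM in the controls and 100.3 to 129.4 CPM after TGF-β1 (log2 change 0.046, adjusted p = 0.7), and the decoys TNFRSF10C (log2 change -0.15, adjusted p = 0.532) and TNFRSF10D (0.11, adjusted p = 0.506) were at 4.81 to 5.742 and 10.6 to 16.88 CPM over the 6 libraries. These 4 genes are paralogs, and expected counts were not whole for TNFRSF10A, TNFRSF10B and TNFRSF10D, so reads shared between them could have been divided by the counting.

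**Figure D2:**
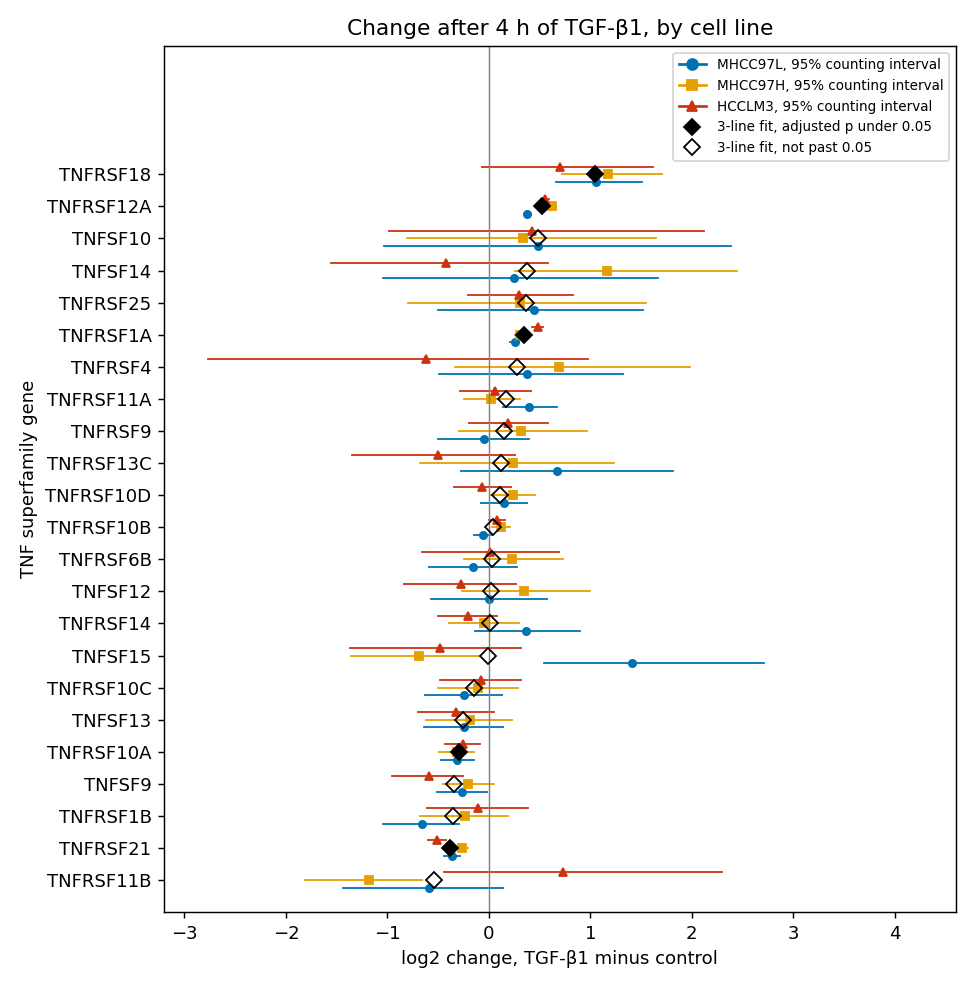
Log2 change after TGF-β1 for the 23 tested genes, with a symbol and a 95% counting interval for each line and a diamond for the fit over the 3 lines, filled where the adjusted p was under 0.05. The 5 filled diamonds are TNFRSF18, TNFRSF12A and TNFRSF1A on the right and TNFRSF10A and TNFRSF21 on the left.

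No ligand passed the test with edgeR, DESeq2 or limma-voom (15.1% of all genes did with edgeR), and 1 of the 6 had an unadjusted p under 0.05 in edgeR. That was TNFSF9, at 13.57, 13.0 and 8.815 CPM in the controls and 11.29, 11.3 and 5.811 CPM after TGF-β1 (log2 change -0.34, SE 0.12, adjusted p = 0.0817), lower in each line. TNFSF13, a ligand of B cell receptors, was also lower in each line, from 4.668 to 6.85 CPM in the controls and 4.08 to 5.472 CPM after TGF-β1 (adjusted p = 0.255). TNFSF12, next to it on chromosome 17, was at 1.81 to 3.239 and 2.319 to 2.663 CPM (adjusted p = 0.968). A readthrough transcript joins both genes, and its gene, TNFSF12-TNFSF13, was listed at 0 to 0.73 CPM. In all, 6 of the 23 genes were higher in every line (24.8% of all genes) and 6 lower in every line (25.6%).

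Within single lines, 9 changes of 1.5-fold or more had a counting interval clear of 0. These compare 1 library with 1 library and have no replicate check. In MHCC97L, TNFRSF18 (log2 change 1.06) and TNFSF15 (1.41) were higher (4.74% of all genes) and TNFRSF1B (-0.66) was lower (3.63%). In MHCC97H, TNFRSF12A (0.62), TNFRSF18 (1.18) and TNFSF14 (1.17) were higher (6.29%) and TNFRSF11B (-1.18) and TNFSF15 (-0.69) lower (5.03%). In HCCLM3, TNFSF9 (-0.59) was lower (3.6%) and no gene was higher (4.3%). The TNFSF14 value rests on 0.524 and 1.289 CPM, and the TNFRSF11B value on 3.906 and 1.675 CPM.

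Between the cell lines, more of the genes were called. At an adjusted p under 0.05 in edgeR's quasi-likelihood test, 14 of the 23 differed in at least 1 of the 3 comparisons between lines (35.9% of all genes), and 7, all receptors, differed by 2-fold or more (10.4%). Between MHCC97L and MHCC97H there were 2, TNFRSF14 and TNFRSF21 (2.53% of all genes), both higher in MHCC97H. The TNFRSF21 call (log2 0.44, adjusted p = 0.0268) was lost with limma-voom (0.0519) and the non-robust fit (0.0621), and without the MHCC97L control (0.497), MHCC97L TGF-β1 (0.365) or MHCC97H TGF-β1 library (0.164). None was lower in MHCC97H (1.09% of all genes) with edgeR or limma-voom, where 2 receptors had an unadjusted p under 0.05 in edgeR and 1 passed with DESeq2. HCCLM3 differed from MHCC97L in 9 (30.1%), of which 3 were higher and 6 lower, and from MHCC97H in 12 (27.3%), of which 5 were higher and 7 lower. Differences of 2-fold or more were found for 1 gene between MHCC97L and MHCC97H (0.945%), 5 between MHCC97L and HCCLM3 (8.67%) and 4 between MHCC97H and HCCLM3 (7.77%). The comparisons share libraries and are not independent of each other.

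Among the receptors that bind TRAF adaptors, TNFRSF14, TNFRSF9, TNFRSF18 and TNFRSF4 differed by 2-fold or more. TNFRSF14 (HVEM), which binds LIGHT and the lymphocyte inhibitory receptor BTLA and lies at chr1:2555639-2565382, was at 2.523 and 3.288 CPM in MHCC97L (control, then TGF-β1), 6.479 and 6.271 in MHCC97H and 10.99 and 9.491 in HCCLM3. MHCC97L was the lowest line and HCCLM3 the highest. HCCLM3 was 3.52-fold above MHCC97L (log2 1.82, SE 0.19, adjusted p = 9.83e-05) and 1.61-fold above MHCC97H (adjusted p = 0.0184), and MHCC97H was 2.19-fold above MHCC97L (log2 1.13, SE 0.19, adjusted p = 0.0164). The 1.61-fold difference was lost without the MHCC97H control (0.0726), the HCCLM3 control (0.105) or the MHCC97H TGF-β1 library (0.11), and with DESeq2 (0.108). The 2.19-fold difference was lost without the MHCC97L control library (adjusted p = 0.248), the MHCC97H control library (0.0782) or the MHCC97H TGF-β1 library (0.0586). TNFRSF14-AS1 overlaps the gene on the opposite strand, and the labels do not say whether the libraries kept strand.

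TNFRSF9 (CD137), a costimulatory receptor of T cells at chr1:7915894-7943165, was at 3.915 and 3.777 CPM in MHCC97L, 1.81 and 2.276 in MHCC97H and 5.416 and 6.198 in HCCLM3. MHCC97H was the lowest line and HCCLM3 the highest, 2.84-fold apart (log2 1.51, SE 0.21, adjusted p = 0.000644). TNFSF9, its ligand, went the other way in HCCLM3, 1.72-fold below MHCC97L (log2 -0.78, SE 0.15, adjusted p = 0.00301) and 1.68-fold below MHCC97H (adjusted p = 0.00419).

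TNFRSF18 in HCCLM3 was 3.34-fold below MHCC97L (log2 -1.74, SE 0.24, adjusted p = 0.000442) and 2.68-fold below MHCC97H (adjusted p = 0.0018), at the values given above. TNFRSF4 (OX40), its neighbour at chr1:1211326-1214138 and also a costimulatory receptor of T cells, was low throughout. It was at 0.87 and 1.155 CPM in MHCC97L, 0.524 and 0.902 in MHCC97H and 0.4248 and 0.2421 in HCCLM3. HCCLM3 was below MHCC97L by a log2 difference of -1.58 (SE 0.51, adjusted p = 0.0419). This call was lost in 9 of 13 alternatives, among them each that left out a library other than the HCCLM3 control, with adjusted p from 0.0575 to 0.306 in those. The log2 difference was -0.94 without the HCCLM3 TGF-β1 library and -2.29 without the HCCLM3 control.

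Among receptors with a death domain, TNFRSF25 (DR3, at chr1:6460786-6466195), the receptor of TL1A, showed the largest difference. It was at 0.696 and 0.9776 CPM in MHCC97L, 0.5716 and 0.7302 in MHCC97H and 2.974 and 3.68 in HCCLM3. HCCLM3 was 3.98-fold above MHCC97L (log2 1.99, SE 0.31, adjusted p = 0.00103) and 5.08-fold above MHCC97H (log2 2.35, SE 0.32, adjusted p = 0.000541). PLEKHG5, which overlaps it on the same strand, was also higher in HCCLM3, by 1.49 and 1.93 on the log2 scale (adjusted p = 0.000583 and 0.000169), and expected counts of TNFRSF25 were not whole. The part of shared reads in this difference was not tested. ESPN, on the opposite strand, was lower in HCCLM3 (log2 -4.50 and -3.96). TNFRSF21 was 1.51-fold lower in HCCLM3 than in MHCC97H (adjusted p = 0.000782) and TNFRSF10B 1.23-fold and 1.28-fold higher in HCCLM3 than in MHCC97L and MHCC97H (adjusted p = 0.0228 and 0.0111). The first TNFRSF10B call was lost without either MHCC97L library (adjusted p = 0.141 and 0.467) and the second without the control of MHCC97L (0.0513) or MHCC97H (0.0843).

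Both secreted decoys differed between lines. TNFRSF6B (DcR3, at chr20:63696651-63698684), which binds FAS ligand, LIGHT and TL1A, was at 4.263 and 3.821 CPM in MHCC97L, 3.096 and 3.651 in MHCC97H and 1.965 and 1.985 in HCCLM3. HCCLM3 was the lowest, 2.05-fold below MHCC97L (log2 -1.03, SE 0.23, adjusted p = 0.00818), and the adjusted p was 0.127 without the MHCC97L control library and 0.0747 with DESeq2. ARFRP1, which overlaps it on the opposite strand, was also lower in HCCLM3 (log2 -0.46, adjusted p = 0.0275). So was RTEL1, the gene that a readthrough on the same strand joins to it (log2 -0.69, adjusted p = 0.00183). STMN3 (log2 -1.09, adjusted p = 0.00139) and ZBTB46 (-0.42, adjusted p = 0.0122), nearby genes that do not overlap TNFRSF6B, were lower than in MHCC97L too. The part of shared reads in the TNFRSF6B difference was not tested. TNFRSF11B (osteoprotegerin, on chromosome 8), which binds RANK ligand and TRAIL, was at 1.653 and 1.066 CPM in MHCC97L, 3.906 and 1.675 in MHCC97H and 0.4248 and 0.7748 in HCCLM3. HCCLM3 was 4.24-fold below MHCC97H (log2 -2.09, SE 0.47, adjusted p = 0.00904). The call was lost without the MHCC97H control library (log2 -1.47, adjusted p = 0.12). The size also moved with the HCCLM3 libraries, to a log2 difference of -1.24 without the control and -3.07 without the TGF-β1 library.

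The other differences were under 2-fold. TNFRSF11A (RANK) was lower in HCCLM3 than in both other lines (1.47-fold and 1.41-fold), TNFRSF1B lower than in MHCC97L (1.57-fold), TNFRSF6B lower than in MHCC97H (1.71-fold, adjusted p = 0.0362), TNFRSF10D lower than in MHCC97H (1.44-fold) and TNFRSF12A higher than in MHCC97H (1.21-fold). Each of these calls was lost in at least 4 of 14 alternatives. The TNFRSF6B call was lost with DESeq2 (adjusted p = 0.25), with limma-voom (0.051) and without each library in turn (0.0647 to 0.26). The TNFRSF10D call was lost without the TGF-β1 library of MHCC97H (adjusted p = 0.116) or HCCLM3 (0.0777). The TNFRSF11A calls were lost without the MHCC97L (0.36) or HCCLM3 (0.084) TGF-β1 library against MHCC97L, and without each library but the HCCLM3 control against MHCC97H (0.0596 to 0.233). The TNFRSF12A call was lost without either library of MHCC97L or MHCC97H (0.0589 to 0.26), and the TNFRSF1B call without each library but the HCCLM3 TGF-β1 library (0.0519 to 0.483).

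**Figure D3:**
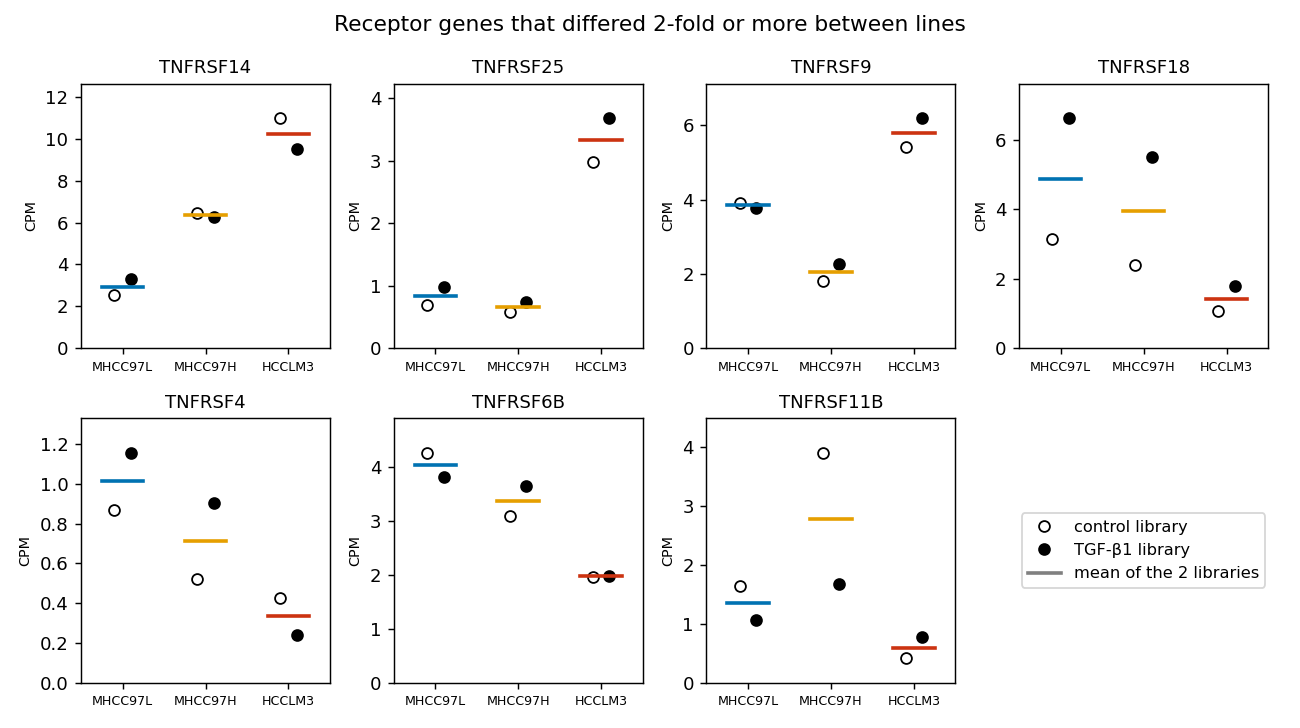
CPM of the 7 receptor genes that differed 2-fold or more between lines, in separate panels that start at 0, with an open point for the control, a filled point for the TGF-β1 library and a bar for the mean of the 2 libraries of a line. HCCLM3 is highest for TNFRSF14, TNFRSF25 and TNFRSF9 and lowest for TNFRSF18, TNFRSF4, TNFRSF6B and TNFRSF11B.

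Of these 7 genes, 5 lie on the short arm of chromosome 1. TNFRSF1B, which differed by less than 2-fold, and TNFRSF8, which was not tested, lie there too. The named genes are thus grouped there by position, and the 5 are not read as a result about the lines. TNFRSF18 and TNFRSF4, 4.63 kb apart, were lower in HCCLM3, and TNFRSF14, TNFRSF25 and TNFRSF9 further along were higher. Genes within 100 kb were looked up, after values were seen, around each gene called after TGF-β1 or 2-fold apart between lines. Only the surroundings of TNFRSF18 are described in full. Of its 8 tested neighbours, 3 were higher after TGF-β1 (8.18% of all genes) and none was lower (6.96%). The 3 were C1QTNF12 (log2 0.87, adjusted p = 0.0145), UBE2J2 (0.33) and SDF4 (0.24). In HCCLM3 against MHCC97L, 3 were lower (15.1% of all genes), TNFRSF4, C1QTNF12 (log2 -1.87, adjusted p = 0.00033) and B3GALT6 (log2 -0.31, adjusted p = 0.0352). TNFRSF4 is itself 1 of the named genes, and its call was lost in 9 of 13 alternatives. C1QTNF12 thus resembled TNFRSF18 in both comparisons. Of the tested genes that lie between them, TNFRSF4 and B3GALT6 were lower in HCCLM3, as given above. SDF4 differed little between these lines (log2 -0.029, adjusted p = 0.832). Shared direction among neighbours was not particular to TNFRSF18. Of the 8 tested genes around TNFRSF6B, 4 were lower in HCCLM3 than in MHCC97L and 0 higher (15.1% of all genes for each). Of the 4 around TNFRSF9, 0 were lower and 0 higher.

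**Figure D4:**
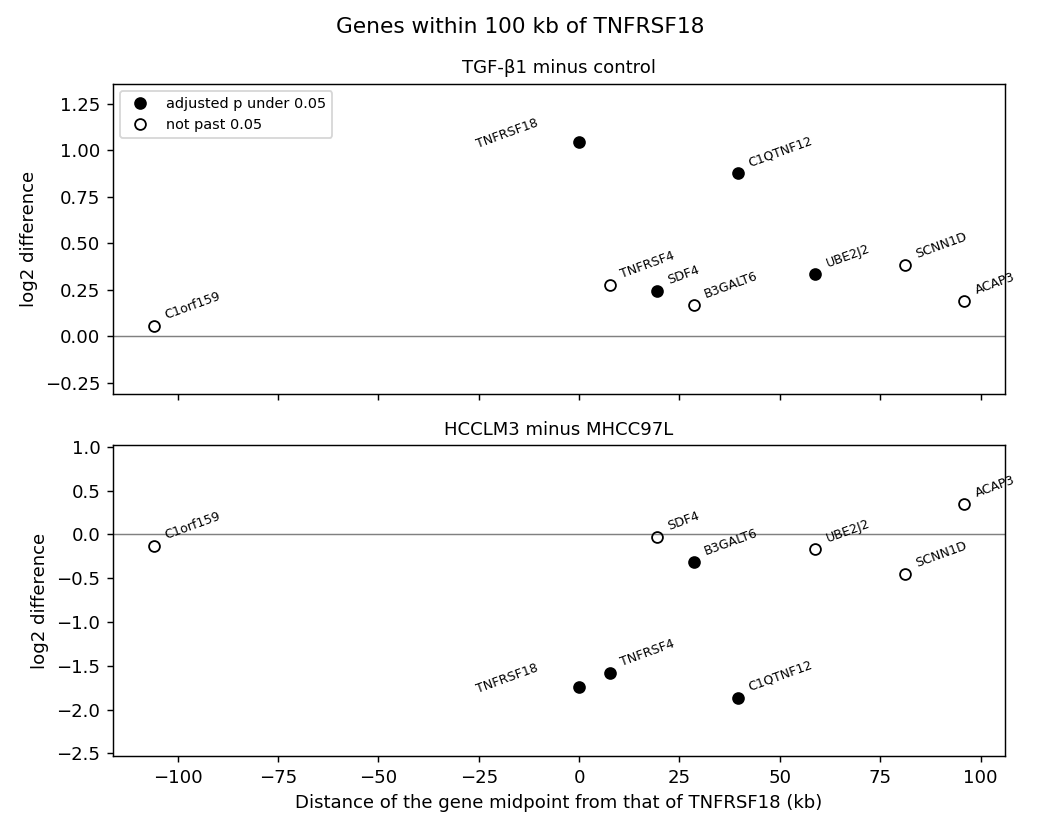
Log2 differences of TNFRSF18 and the 8 tested genes within 100 kb of it, after TGF-β1 (upper panel) and in HCCLM3 against MHCC97L (lower panel), by distance in kb between gene midpoints. Filled points had an adjusted p under 0.05. TNFRSF18 (1.04 and -1.74) and C1QTNF12 (0.87 and -1.87) stand apart from the line at 0 in both panels.

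The superfamily also holds genes with other names, and 5 of 15 were tested. LTBR, the lymphotoxin beta receptor, was at 242.3 to 323.4 CPM (log2 change after TGF-β1 0.05, adjusted p = 0.681). RELT, a receptor with no death domain, rose from 20.66, 16.53 and 18.05 to 28.75, 26.76 and 22.08 CPM (log2 0.49, SE 0.098, adjusted p = 0.011). It was the 1 of the 5 called higher (8.18% of all genes). None of the 5 was called lower with edgeR, DESeq2 or limma-voom (6.96% of all genes with edgeR). The ligand gene EDA was lower in each line and just short of the threshold (log2 -0.58, SE 0.17, adjusted p = 0.0541). FAS, the death receptor of FAS ligand, was low at 0.0969 to 0.711 CPM, and CD40 was at 0 to 0.0531 CPM. TNF itself had 1 count in each of 2 libraries and was listed at 0 in the other 4. That 0 cannot be read as absence, since widely expressed genes of the same region, PRRC2A and NFKBIL1, were listed at 0 in all 6 libraries as well and CSNK2B in 4 of 6, while BAG6 had 721 to 1236 counts. These neighbours were picked after their values were seen.

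Downstream of the receptors, 32 adaptor, death and ubiquitin signalling genes were tested, with 2 higher and 2 lower after TGF-β1 and a median log2 change of -0.0067. Both counts are near the shares over all genes, 8.18% higher and 6.96% lower. XIAP (0.38, adjusted p = 0.00454), a caspase inhibitor, and TRAF7 (0.27, adjusted p = 0.0207) rose. BIRC3 (cIAP2), a ubiquitin ligase of receptor complexes, fell from 67.65, 45.06 and 55.12 to 31.9, 23.67 and 24.21 CPM (log2 -1.07, SE 0.080, adjusted p = 6.2e-05), and MLKL, the effector of necroptosis, fell by 0.43 on the log2 scale (adjusted p = 0.0221). Of 13 genes for NF-kB subunits, their inhibitors and the IKK complex, 4 were higher (8.18% of all genes) and 1 lower (6.96%), with a median of 0.11. BCL3 (0.50, adjusted p = 0.00117), NFKB1 (0.29, adjusted p = 0.0181), RELB (0.28, adjusted p = 0.0437) and IKBKG (0.24, adjusted p = 0.0488) rose, and NFKBIZ fell from 10.74, 19.39 and 34.3 to 6.087, 9.707 and 16.46 CPM (log2 -0.97, SE 0.097, adjusted p = 0.00029). DESeq2 called 3 of the list higher and limma-voom 2.

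Of 15 tested genes known to be induced by TNF through NF-kB, 1 rose (8.18% of all genes) and 5 fell (6.96%) after TGF-β1, with a median of -0.20. TNFAIP8 rose (log2 0.99, adjusted p = 0.000268). BIRC3, which stands on this list too, fell together with the chemokines CXCL3 (log2 -1.24, adjusted p = 0.0168), CXCL2 (-1.15, adjusted p = 0.025) and CCL20 (-0.67, adjusted p = 0.0191) and the adhesion molecule VCAM1 (-1.14, adjusted p = 0.0226). CXCL2, CXCL3 and VCAM1 were at most 4.335 CPM in any library. DESeq2 called 2 of the list lower and limma-voom 5. TNFAIP3 and NFKBIA, early targets that restrain the pathway, did not pass the test (log2 -0.13, adjusted p = 0.305, and 0.032, adjusted p = 0.849).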

How the data were processed

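The authors deposited expected counts per gene, 1 table per library, with Ensembl IDs. Per the submitters' processing notes, TopHat2 2.1.1, Cufflinks 2.2.1, Cuffdiff 1.3.0 and hg38 were used, without roles. The sources used here do not name the counting tool, and 63.64% to 64.56% of a library's values were whole. Symbols came from the reference gene table or GENCODE 29 (19556 of 22091 IDs), which also gave exon lengths. Counts were rounded, filtered with filterByExpr, scaled by TMM (factors 0.9715 to 1.029) and tested over all 14176 genes kept with edgeR 4.0.16 (robust quasi-likelihood, line and treatment as terms, Benjamini-Hochberg, 0.05) in R 4.3.3. Alternatives used DESeq2 1.42.0 and limma 3.58.1 (voom). Within a line, changes are log2 CPM differences (prior count 2) with 95% exact conditional binomial intervals, which cover counting error only. The labels pair the libraries of a line, whose deviations from the condition means correlated at 0.672, 0.544 and 0.782. Genes were described in full where they passed the threshold after TGF-β1, or between lines at 2-fold or more. List genes were named by smallest p, up to 4 per direction, and CXCL2 was added after its values were seen. The genes and lists were chosen with earlier results of these data known. Scripts were tested on simulated data. Plots used Python 3.11.15 and matplotlib 3.10.9.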

Additional observations from a re-analysis of the deposited data

Results flagged for a closer look

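TNFSF15, the ligand of TNFRSF25, moved in opposite directions in MHCC97L and MHCC97H. The log2 change after TGF-β1 was 1.41 in MHCC97L (95% counting interval 0.546 to 2.71) and -0.69 in MHCC97H (-1.36 to -0.094), and it was -0.48 in HCCLM3 (-1.37 to 0.316). The levels were 0.4785 and 1.422 CPM in MHCC97L, 2.62 and 1.589 CPM in MHCC97H and 1.593 and 1.114 CPM in HCCLM3, control first. The MHCC97L control library is the lowest of the 6, and the other 5 lie between 1.114 and 2.62 CPM. The difference between the lines was not tested, since each line has 1 library per condition, and expected counts of this gene were not whole.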

How the results depend on the processing

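Of the 5 genes called after TGF-β1, without the replicate block (treatment as the only term) 0 were called, with 3 at an unadjusted p under 0.05. Leaving out a line gave 1 to 6 calls, 1 to 3 of them higher and 0 to 3 lower, and without MHCC97L, where 0 were lower, 2 fell at an unadjusted p under 0.05. DESeq2 called 1 lower. Of 14 genes called between lines, DESeq2 found 9, the fit without the replicate block 4, and leaving out a library 9 to 13. For MHCC97H against MHCC97L (2 genes), limma-voom and the non-robust fit each gave 1, the fit without the block 0 (2 unadjusted), and leaving out a library 0 to 5. For HCCLM3 against MHCC97L (9 genes), DESeq2 gave 5, the fit without the block 3, and leaving out a library 5 to 9. For HCCLM3 against MHCC97H (12 genes), the fit without the block gave 2 and leaving out a library 6 to 10. The cause of these changes was not tested, and a leave-one-out fit also has fewer libraries. No direction reversed under any alternative run. TNFRSF14 (HCCLM3 against MHCC97L), TNFRSF25 (HCCLM3 against both lines) and TNFRSF9 (HCCLM3 against MHCC97H) passed the threshold in all 14 alternatives. Other prior counts or scaling gave 8 or 9 within-line changes. TNFRSF18, on the fewest counts of the 5, rests on 20 to 149 per library.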
